A study of Mus musculus with 12 samples.

Results

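Oligodendrocyte lineage and myelin genes are 31 genes taken by symbol from the deposited table of normalized CPM (a gene's reads scaled to a common library total), which lists 32494 genes. All 31 were listed and all 31 passed the minimum mean of 1 CPM set for testing. By role they are 10 genes of structural myelin (Mbp, Mog, Mag, Mobp, Mal, Cnp, Cldn11, Opalin, Ermn, Tspan2), 4 enzymes of myelin lipids and metabolites (Ugt8a, Fa2h, Aspa, Enpp6), 2 gap junction genes (Gjb1, Gjc3), 5 transcription factors (Myrf, Sox10, Olig1, Olig2, Nkx6-2), 6 other genes of mature oligodendrocytes (Trf, Apod, Gpr37, Hapln2, Ppp1r14a, Cryab) and 4 precursor genes (Pdgfra, Cspg4, Gpr17, Bcas1).

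RNA was sequenced from the hypothalamus of 12 male mice with floxed Smc3, all given tamoxifen and sampled 5 weeks later; the growth protocol states an age of 8 weeks. Mice without the Camk2a-cre/ERT2 transgene were labelled WT (n = 7) and mice with it cKO (n = 5). The Camk2a promoter drives this tamoxifen-activated recombinase in excitatory neurons of the forebrain, so oligodendrocytes are not the cells it is meant to act in. The study asked what Smc3, a core subunit of the cohesin ring that shapes chromosome loops, does in adult neurons, with body weight and the melanocortin 4 receptor in its title.

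Oligodendrocytes are the cells of the brain that wrap axons in myelin. They arise from dividing precursors marked by the growth factor receptor Pdgfra and the proteoglycan Cspg4, pass through a short committed stage marked by the receptor Gpr17, and then switch on Myrf and the genes of the myelin sheath. White matter tracts, such as the fornix and the optic tract that run through or beside the hypothalamus, hold many more of them than nuclei of neurons do. In bulk tissue, fewer cells of a type and less RNA per cell cannot be told apart.

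Promoter sequences are shown for 3 myelin genes whose levels moved together across the mice (Cnp, Mog and Mobp) and for Nkx6-2, the one member called lower in the libraries labelled cKO. They come from RefSeq (build GRCm38.p6) and run over the 250 bases before the start of the gene, 5′ to 3′ on the gene's strand. Capitals mark 3 short motifs searched on both strands: CTGGCAC or CTGGTAC, the core letters bound by the myelin factor MYRF; ACAAAG, core letters of SOX factors; and CANNTG, the E-box of basic helix-loop-helix factors such as OLIG2. The windows are chr11:100574689-100574938, plus strand, for Cnp; chr17:37023399-37023648, minus strand, for Mog; chr9:120149492-120149741, plus strand, for Mobp; and chr7:139582798-139583047, minus strand, for Nkx6-2.
Cnp: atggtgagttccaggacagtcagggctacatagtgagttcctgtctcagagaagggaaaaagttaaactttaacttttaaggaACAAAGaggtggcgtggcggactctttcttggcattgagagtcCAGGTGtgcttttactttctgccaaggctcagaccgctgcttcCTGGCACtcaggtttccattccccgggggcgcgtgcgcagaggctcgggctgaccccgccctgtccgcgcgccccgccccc
Mog: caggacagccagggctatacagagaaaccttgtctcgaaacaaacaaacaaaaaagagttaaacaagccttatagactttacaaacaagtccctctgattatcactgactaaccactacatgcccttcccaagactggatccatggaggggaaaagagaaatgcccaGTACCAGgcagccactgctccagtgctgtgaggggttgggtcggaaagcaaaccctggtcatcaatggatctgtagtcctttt
Mobp: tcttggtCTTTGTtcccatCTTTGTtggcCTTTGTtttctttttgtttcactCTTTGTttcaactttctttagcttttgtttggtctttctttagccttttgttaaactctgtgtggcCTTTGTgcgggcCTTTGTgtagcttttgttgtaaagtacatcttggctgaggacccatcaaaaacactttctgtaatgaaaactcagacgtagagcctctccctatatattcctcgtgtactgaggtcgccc
Nkx6-2: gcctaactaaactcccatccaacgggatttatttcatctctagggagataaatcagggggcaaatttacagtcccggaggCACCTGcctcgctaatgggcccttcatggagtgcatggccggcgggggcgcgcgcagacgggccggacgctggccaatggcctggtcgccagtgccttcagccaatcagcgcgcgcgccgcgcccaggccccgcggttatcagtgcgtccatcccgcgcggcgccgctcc
Cnp held 1 match of each motif, Mog 1 MYRF match on the opposite strand, Mobp 6 SOX matches on the opposite strand, and Nkx6-2 1 E-box. Of the 31 members, 22 were found in the promoter table, with 28 starts among them. None of the 3 motifs lay in the promoters of Mal, Cldn11, Ermn, Enpp6, Olig2 or Cspg4, which are not shown. MYRF letters lay in the promoters of 4 of the 22 (Cnp, Hapln2, Mag and Mog), which is 5 of 28 starts (17.9%) against 5.93% of all 32851 promoters. SOX letters lay in 7 of the 22, at 9 of 28 starts (32.1%) against 16.5% of all promoters. E-boxes lay at 67.9% of member starts and 66.2% of all promoters. These are matches of letters only, and a gene with several starts is counted once for each.

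Smc3 was read in every library first, as a check of the labels, and it went against them. In the libraries labelled WT it was at 76.8, 83 and 85.7 CPM (lowest, median, highest), and in those labelled cKO at 144, 132, 116, 126 and 136 CPM. The groups did not overlap, and the difference was 0.67 on the log2 scale (SE 0.049, limma adjusted p = 3.06e-05). Reads from exons outside the floxed part count toward this value, and the labels do not say which exons are floxed. The titles of all 12 samples, of both groups, also carry the word control, which was not used for grouping. Directions below are therefore given for libraries labelled WT or cKO. WT 1 was sequenced to 68.7 megareads and the other 11 libraries to between 17.1 and 24.0, and the least-read member value rested on 82 reads (Enpp6). The 31 pairs of libraries within a group differed by 3.04 to 26.3 times counting noise (chi-square per degree of freedom), so no pair looked like 1 library deposited in 2 copies; this does not show that they are separate animals. Nothing but the mouse numbers in the titles says that the libraries are separate animals. Markers of Schwann cells, which myelinate peripheral nerve with many of the same genes, were low: Pmp2 reached at most 0.093 CPM, and it summed with Prx, Ncmap and Egr2 to 2.96 to 4.38 CPM over the 12 libraries.

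Myelin transcripts differed more between mice of one group than between the groups. Across the 12 libraries the 27 members other than the precursor genes spanned 1.47-fold (Olig1) to 3.70-fold (Enpp6) from the lowest to the highest library, with a median of 2.17-fold, and 20 of the 27 spanned at least 2-fold. That was true of 17.9% of all tested genes, whose median span was 1.40-fold. Mbp, which encodes the protein that compacts the sheath, was at 1734, 2317 and 4334 CPM (lowest, median and highest) in the 7 libraries labelled WT. In those labelled cKO it was at 1904, 2537, 3689, 4130.0 and 2021 CPM in cKO 8, 9, 12, 13 and 14. The ranges overlapped almost fully, with 2 high libraries in each group: WT 4 and WT 5, and cKO 12 and cKO 13.

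The same 4 libraries stood at the top for most of the set. Mobp, a small basic protein of compact myelin, was at 593, 813 and 1553 CPM in the libraries labelled WT (lowest, median, highest) and at 826, 989, 1476, 1654 and 787 CPM in those labelled cKO. Enpp6, a choline phosphodiesterase of newly forming oligodendrocytes, was at 3.67, 6.32 and 13.6 CPM and at 7.17, 7.01, 9.66, 11.6 and 4.97 CPM respectively. Gjb1, the connexin 32 gap junction protein, was at 11.8, 14.6 and 28.5 CPM and at 9.69, 18.4, 26.8, 24.2 and 11.1 CPM. In each of these, WT 6 was the lowest library labelled WT and both high libraries of a group stood above all others of that group. Counted over the set, 22 of the 27 genes had WT 4, WT 5, cKO 12 and cKO 13 all above the other 8 libraries, and the same held for 3.83% of all tested genes. Within both groups taken separately, these libraries were the highest for 25 of 27, against 6.73% of all tested genes. The exceptions were Sox10 and Olig2, in which cKO 13 did not stand above cKO 9. WT 6 was the lowest library labelled WT for 24 of 27, the exceptions being Olig1, Nkx6-2 and Hapln2.

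**Figure D1:**
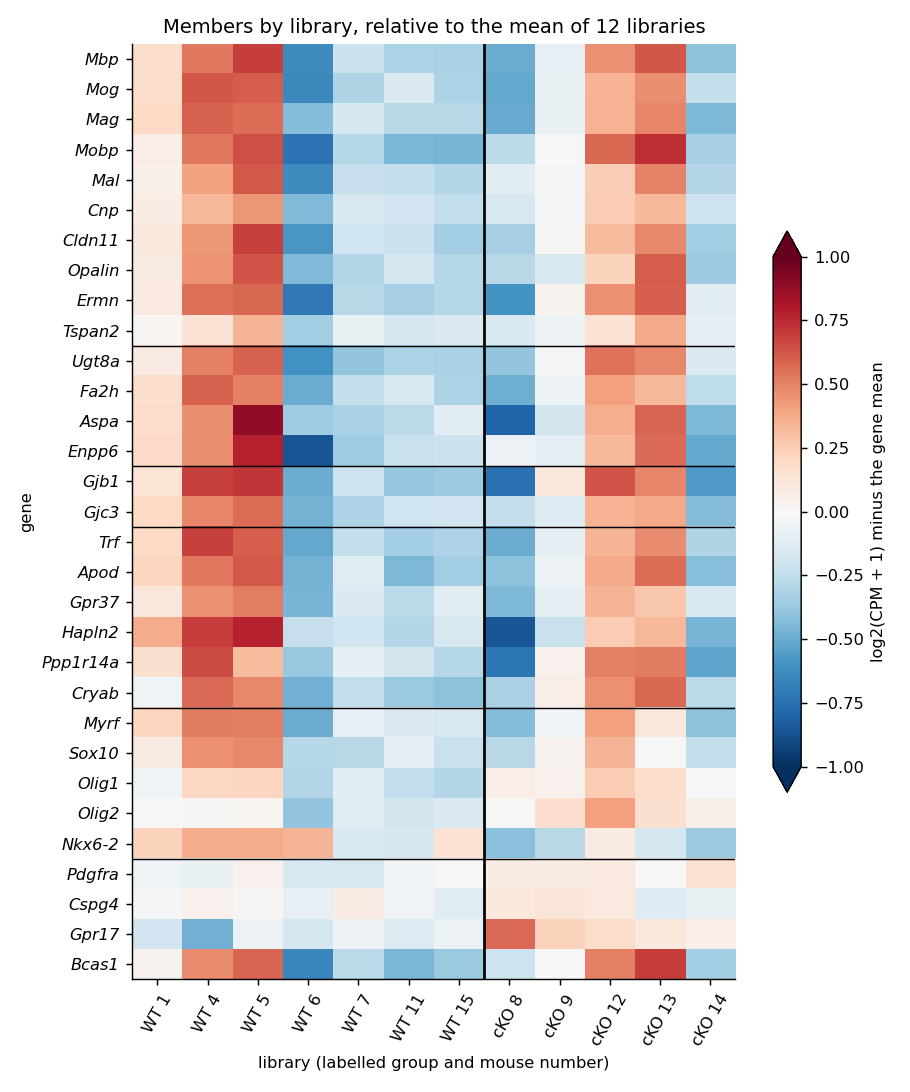
Level of each of the 31 genes (rows, grouped by role) in each of the 12 libraries (columns, labelled group and mouse number), as log2(CPM + 1) minus the mean of that gene over all libraries. WT 4, WT 5, cKO 12 and cKO 13 are red for nearly all genes above the precursor rows, while Pdgfra, Cspg4 and Gpr17 do not follow that pattern.

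Counting noise was far smaller than this spread. The SD of log2(CPM + 1) within groups was 0.42 at the median of the 27 genes, and the SD that counting alone gives was at most 0.12 for any of them. Over all tested genes the median SD within groups was 0.12. Against genes of similar level (the same decile of all tested genes by mean), 25 of the 27 lay above the 90th percentile of spread, and the lowest, Olig2, lay at the 82.9th. Bcas1, which was listed here with the precursor genes, was as variable as myelin genes, with an SD of 0.46. Gpr17, with an SD of 0.17, lay at the 89.6th percentile, above Olig1 and Olig2. Pdgfra had an SD of 0.069, at the 24.0th percentile, and Cspg4 0.092, at the 42.5th.

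The 4 libraries with the most myelin RNA held almost no oxytocin RNA. Oxt, the hormone of the paraventricular and supraoptic nuclei, was at 1.33 CPM in WT 4, 0.651 in WT 5, 0.28 in cKO 12 and 2.33 in cKO 13. It was between 69.5 and 348 CPM in the other 8. Avp, the vasopressin gene of the same nuclei, was at most 6.46 CPM in those 4 and at least 29 CPM in the others. The other 10 markers in a list of hypothalamic neurons summed to 78.6 to 257 CPM in the 4 libraries and 183 to 517 CPM in the 8, so these ranges overlapped; with Oxt and Avp, which set the split or moved with it, the 12 summed to 80.9 to 260.1 CPM and 407 to 778 CPM. Markers of ependyma, the lining of the third ventricle, summed to 37.3 to 55.4 CPM against 54.5 to 94.2 CPM, ranges that met at cKO 12 and WT 7. The part of these cell types in the myelin levels was not tested, and the labels do not describe the dissection.

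**Figure D2:**
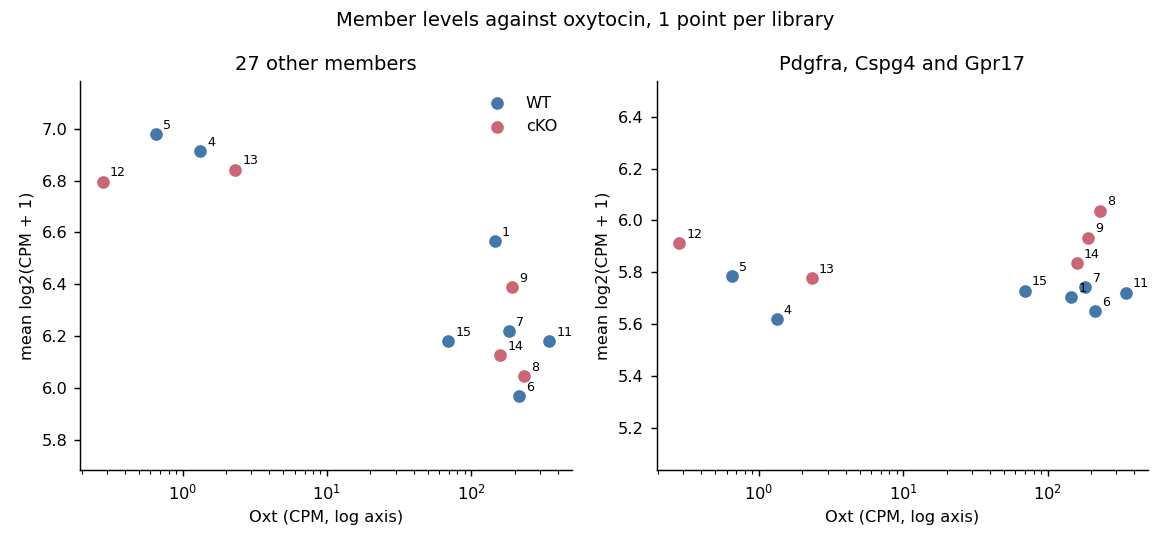
Mean log2(CPM + 1) of the 27 genes other than the precursor genes (left) and of Pdgfra, Cspg4 and Gpr17 (right) against Oxt in CPM on a log axis, 1 point per library with its mouse number. On the left, the 4 libraries with Oxt below 10 CPM lie at 6.80 to 6.98 and the other 8 at 5.97 to 6.57; on the right they are not separated, and both vertical axes span the same range.

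To put a size on this shared movement, each gene was fitted against the mean log2(CPM + 1) of 35 other genes of mature oligodendrocytes, none of them among the 31. Several of the 35, such as the gelsolin gene Gsn and the tetraspanin gene Cd9, are made by other cells too. The labelled group was in the fit, so a slope of 1 means that a gene changed between mice of one group by as much as that mean did. The mean was at 5.38, 5.56 and 6.08 in the libraries labelled WT (lowest, median, highest) and at 5.34, 5.65, 5.95, 5.98 and 5.43 in cKO 8, 9, 12, 13 and 14. The groups overlapped, and their means lay 0.0097 apart. The slope was past the threshold for 28 of the 31 members, all upward, where 16.3% of all tested genes had a slope past it, 9.06% an upward and 7.28% a downward one. Over all tested genes the 2504 slopes past the threshold (1116 downward) fell to 1666 without WT 4 and 1585 without WT 5 (657 downward in each), and the downward ones to 724 without cKO 8, while the members' count stayed at 27 or 28. The split over all tested genes, 1388 upward and 1116 downward, became 1220 and 1252 after median centring, where 27 members passed, all upward. On recovered reads edgeR gave 27 members, without Nkx6-2 (16.2% of all tested genes). The 28 were the 27 members other than the precursor genes, plus Bcas1.

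Most structural myelin genes had slopes above 1, among them Mbp 1.72 (95% interval 1.54 to 1.91), Mobp 1.78 (1.57 to 1.99) and Mog 1.55 (1.28 to 1.82). Mag, the adhesion protein next to the axon, had 1.51 (1.38 to 1.65). Cnp, the cyclic nucleotide phosphodiesterase of the non-compact channels, had 0.99 (0.82 to 1.17), and the tetraspanin Tspan2 0.73 (0.55 to 0.92), both intervals lying wholly below that of Mbp. The enzymes of myelin lipids, Ugt8a, which makes galactosylceramide, and Fa2h, which hydroxylates its fatty acids, had slopes of 1.52 and 1.39. Aspa, which cleaves N-acetylaspartate, and Enpp6 had 1.74 and 1.58. Gjb1 had the steepest slope of the 31, 1.92, and the other connexin, Gjc3, 1.31. In the other mature genes slopes ran from 1.19 for the receptor Gpr37 to 1.64 for Hapln2, a link protein of the node of Ranvier, with the iron carrier Trf at 1.58.

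All 5 transcription factors had slopes whose intervals lay wholly below those of Mbp and Mobp. Myrf, which switches on myelin genes, had a slope of 1.24 (0.9998 to 1.48, adjusted p = 5.11e-06 by limma). Sox10, present through the whole lineage, had 0.96 (0.68 to 1.24, adjusted p = 0.000207 by limma). The lineage determinants Olig1 and Olig2, shared with precursors, had 0.57 and 0.44 (limma adjusted p = 0.000689 and 0.00685). Nkx6-2, a homeobox factor of myelinating oligodendrocytes, had 0.52 (0.17 to 0.86) and was only just past the threshold (limma adjusted p = 0.0418), which it missed without any one of 9 of the 12 libraries. Neighbours in the order of slopes have overlapping intervals, and differences between slopes were not tested.

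Of the 4 precursor genes, Bcas1 alone followed the mature genes, with a slope of 1.60 (1.40 to 1.80). Pdgfra had 0.025 (-0.15 to 0.20), Cspg4 0.035 (-0.19 to 0.26) and Gpr17 -0.28 (-0.60 to 0.041). The intervals of these 3 genes lie wholly below that of Bcas1 and wholly below those of all 10 structural myelin genes. Bcas1 is known to mark early myelinating cells and also to stay on in myelin. Within the 8 libraries with Oxt alone, 2 members kept a slope past the threshold (Mag and Trf), where 4 of all tested genes did (0.0261%). There the median slope of the 27 genes was 1.46 and all 27 were positive, against 1.47 over all 12 libraries, and Pdgfra, Cspg4 and Gpr17 had 0.050, 0.22 and -0.34.

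**Figure D3:**
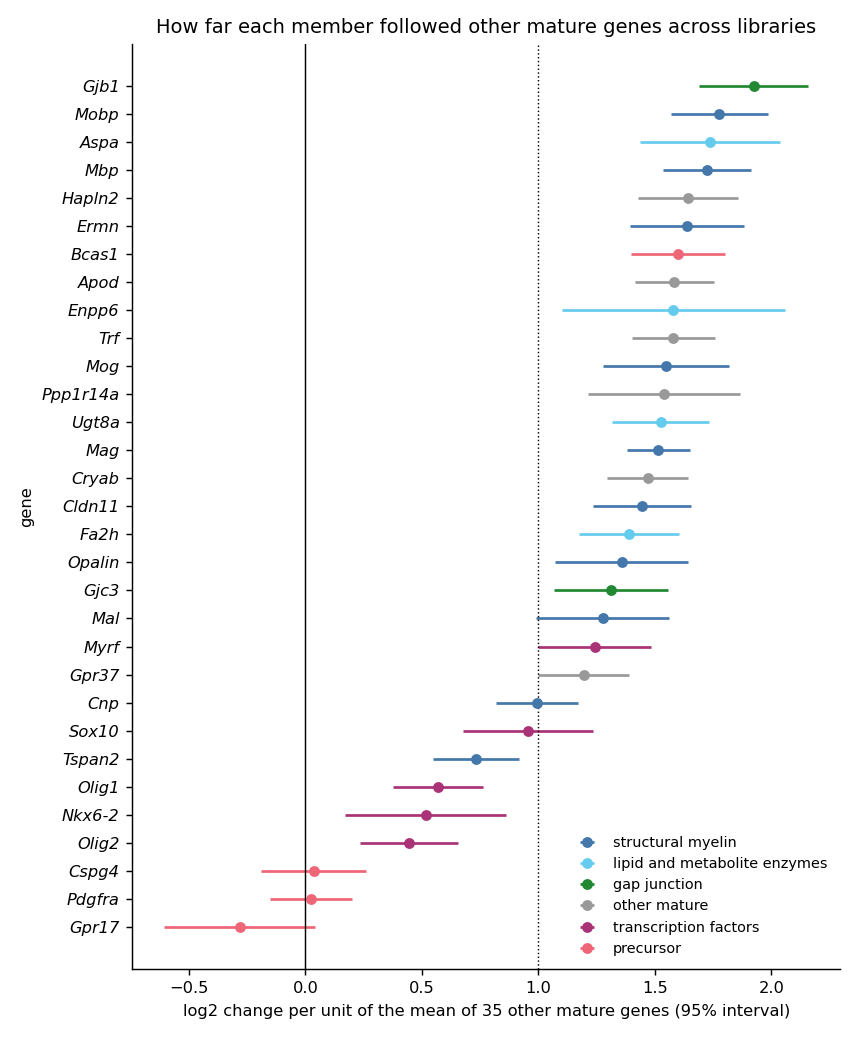
Change of each gene in log2(CPM + 1) per unit of the mean log2(CPM + 1) of 35 other genes of mature oligodendrocytes over the 12 libraries, with the labelled group in the fit; points are slopes, bars 95% intervals, colours roles, the solid line 0 and the dotted line 1. Bcas1 sits among the myelin genes, the 3 other precursor genes sit at or below 0.04, and Olig1, Olig2, Nkx6-2 and Tspan2 lie between.

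Between the labelled groups, 4 of the 31 members passed the threshold (12.9%), and 14.1% of all tested genes did, so the share called among members is near the background. Gpr17, Olig2 and Pdgfra rose under the cKO label, and Nkx6-2 fell, where 6.54% of all tested genes rose and 7.6% fell. Over all tested genes this is 1004 higher and 1168 lower, which became 1377 and 1054 after median centring, where the members' split stayed at 3 and 1. The median difference of the 31 was 0.03 and that of all tested genes 0.0092 on the log2 scale. An unadjusted p under 0.05 was reached by those same 4 members (12.9%), against 31.1% of all tested genes. On recovered reads, edgeR called 3 members (13.7% of all tested genes) and DESeq2 called 4 (17.9%). In the authors' deposited table, members with a false discovery rate under 0.05 were Gpr17, Olig2 and Nkx6-2, beside 4.94% of all listed genes. That share is over all 32494 genes, including those under the 1 CPM minimum, whereas the shares above are over the 15359 tested genes.

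Gpr17, an orphan receptor of the committed precursor stage that holds back maturation, was the one member whose groups did not overlap; 6.73% of all tested genes had groups apart. Its level was 42.3, 54.1 and 57.4 CPM (lowest, median, highest) in the libraries labelled WT and 88.7, 69.9, 67.6, 64.1 and 62.4 CPM in cKO 8, 9, 12, 13 and 14. Every library labelled cKO stood above every library labelled WT, with WT 4 low and cKO 8 high within their groups. The difference was 0.39 (SE 0.09, limma adjusted p = 0.0142), with an exact two-sided permutation p of 0.00126 over 792 splits, the smallest this design can give. In the authors' deposited table its log2 fold change was 0.41 with a false discovery rate of 0.00196. The call was kept with each library left out in turn (differences of 0.31 to 0.44). It was lost with the mean level of thalamic markers as a covariate (0.35, limma adjusted p = 0.118) and with thalamic and hypothalamic markers together (0.33, limma adjusted p = 0.101). Over all tested genes 3.88% and 8.5% passed in these 2 fits, against 14.1% without a covariate. The thalamic mean itself differed between the labels (-0.63, cKO minus WT), so these fits cannot fully separate it from the label. In the 8 libraries with Oxt the Gpr17 difference was 0.41 (limma adjusted p = 0.0269), and in the 4 with little Oxt it was 0.41 (limma adjusted p = 0.212). Of all members, 3 passed in the 8 libraries, Gpr17, Nkx6-2 and Olig1, where 10.3% of all tested genes did. In the 4 libraries 0 passed by limma, where 0.762% of all tested genes did, and 8 had an unadjusted p under 0.05, where 14.4% of all tested genes did; other tools were not run there.

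Pdgfra, the receptor that drives division of precursors, was at 72.9, 79.2 and 83.9 CPM (lowest, median, highest) in the libraries labelled WT and at 85.9, 86.4, 87.5, 81.2 and 90.8 CPM in those labelled cKO. The groups met at their edges, cKO 13 lying below WT 5 and WT 15, and the rise was 0.14 (SE 0.043, limma adjusted p = 0.0476). Its call was lost with 9 of the 12 libraries left out one at a time, holding without WT 5, WT 15 or cKO 13 and weakest without cKO 14 (adjusted p up to 0.11 by limma), and edgeR gave an adjusted p of 0.0603. It was also lost with the thalamic markers (0.12, limma adjusted p = 0.249), with both marker lists (0.13, adjusted p = 0.203), in the 8 libraries with Oxt (0.18, adjusted p = 0.0509) and in the 4 with little Oxt (0.059, adjusted p = 0.777). Over all tested genes 3.88%, 8.5%, 10.3% and 0.762% passed in these fits, in the same order. At the main difference the adjusted p missed the threshold with all genes above 0 tested (limma adjusted p = 0.0758), without limma's trend (0.068) and with its robust option (0.051). Cspg4, the proteoglycan NG2, was at 30, 32.3 and 34.6 CPM and 35.4, 35.9, 35, 29.9 and 31 CPM respectively, and its difference was 0.045 (95% interval -0.073 to 0.16). With a correction for GC content and length it was 0.18 and past the threshold (limma adjusted p = 0.0279; 15.2% of all tested genes passed). Bcas1 was at 123, 162 and 292 CPM and 168, 195, 277, 314 and 154 CPM, with the same 4 high libraries as the myelin genes. Its difference was 0.22 (95% interval -0.28 to 0.72, limma adjusted p = 0.555).

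Olig2, the helix-loop-helix factor that specifies the lineage, was at 28.4, 34.5 and 38.3 CPM in the libraries labelled WT (lowest, median, highest) and at 37.6, 42.4, 50.1, 42.2 and 39.2 CPM in those labelled cKO. Only cKO 8 fell within the WT range, and the rise was 0.27 (SE 0.081, limma adjusted p = 0.0399). Its paralog Olig1 was at 162, 184 and 231 CPM and 208, 205, 238, 225 and 199.7 CPM, with a difference of 0.19 (SE 0.094) that did not pass (limma adjusted p = 0.184). In the 8 libraries with Oxt the Olig1 difference was 0.24 (limma adjusted p = 0.0416), and in the 4 with little Oxt 0.0079 (limma adjusted p = 0.972). The Olig2 call held without WT 4, WT 5 or cKO 8 and was lost without any one of the other 9 libraries, with the largest limma adjusted p, 0.0851, without cKO 12. It was also lost with the thalamic markers (0.21, limma adjusted p = 0.284), with both marker lists (0.26, adjusted p = 0.0565), in the 8 libraries with Oxt (0.24, adjusted p = 0.0849), in the 4 with little Oxt (0.26, adjusted p = 0.29) and with arrayWeights (0.19, adjusted p = 0.0574). Over all tested genes 3.88%, 8.5%, 10.3%, 0.762% and 33.4% passed in these fits, in the same order. At the main difference the adjusted p missed the threshold with all genes above 0 tested (limma adjusted p = 0.0728) and without limma's trend (0.0504). Myrf and Sox10 differed by -0.12 (95% interval -0.52 to 0.28) and -0.049 (-0.38 to 0.28), neither past the threshold.

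Nkx6-2 was at 39.6, 52.5 and 57.9 CPM (lowest, median, highest) in the libraries labelled WT and at 33.1, 36.6, 47.1, 39.6 and 34.4 CPM in those labelled cKO. The ranges overlapped, since WT 7 and WT 11 lay below cKO 12, and the difference was -0.39 (SE 0.11, limma adjusted p = 0.0359). In the 8 libraries with Oxt it was -0.43 (limma adjusted p = 0.0417) and in the 4 with little Oxt -0.41 (limma adjusted p = 0.12). The call held without WT 7, WT 11 or cKO 12 and was lost without any one of the other 9, up to an adjusted p of 0.0833 by limma without cKO 14. It was also lost with the correction for GC content and length (-0.33, limma adjusted p = 0.0608) and with all genes above 0 tested (limma adjusted p = 0.0695).

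**Figure D4:**
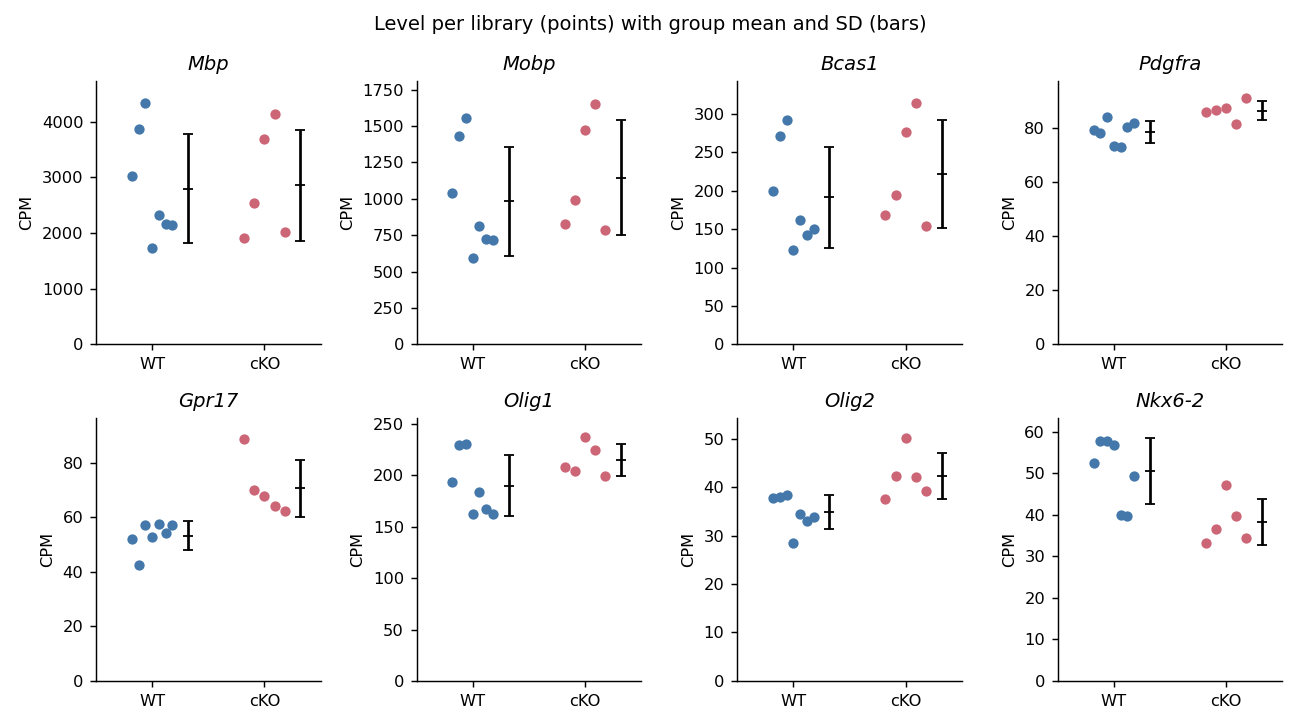
Levels in CPM, from 0, of 8 genes in the 7 libraries labelled WT and the 5 labelled cKO; points are libraries, and bars give the group mean and SD. Mbp, Mobp and Bcas1 spread widely in both groups, while Gpr17 is higher in all 5 libraries labelled cKO than in any labelled WT.

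None of the sheath and mature genes passed the threshold: by limma 0 of 10 structural genes, 0 of 4 enzymes, 0 of 2 gap junction genes and 0 of 6 other mature genes, with 0 of each at an unadjusted p under 0.05 and 0 called by edgeR or DESeq2. Over all tested genes 14.1% passed and 31.1% had an unadjusted p under 0.05. The wide spread between mice leaves wide intervals. For Mbp the difference was 0.031 (95% interval -0.51 to 0.57), for Mog 0.0014 (-0.49 to 0.50) and for Mobp 0.24 (-0.31 to 0.80). Cnp, with less spread, had 0.065 (-0.25 to 0.38) and Tspan2 0.078 (-0.17 to 0.32). Ugt8a and Fa2h had 0.16 and -0.021, and Gjb1 and Gjc3 -0.031 and -0.026. Hapln2 stood lowest at -0.33 (SE 0.24, limma adjusted p = 0.378), from 34.7, 38.3 and 73.6 CPM in the libraries labelled WT (lowest, median, highest) and 23.2, 36.6, 51.3, 54.1 and 30.8 CPM in those labelled cKO. Differences of the 27 genes ran from -0.39 to 0.27, with a median of 0.0084.

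Precursor and other members were also set side by side in each mouse. The mean log2(CPM + 1) of the 27 genes was 6.43 ± 0.39 (SD, n = 7) under the WT label and 6.44 ± 0.37 (SD, n = 5) under the cKO label, 0.010 apart. For the 4 precursor genes it was 6.16 ± 0.13 and 6.36 ± 0.10, which is 0.20 apart, and for the 3 without Bcas1 it was 5.71 ± 0.056 and 5.90 ± 0.099. The groups overlapped in both means, the highest WT and lowest cKO libraries being at 6.39 and 6.20, and at 5.785 and 5.778. Single differences of the 4 genes ran from 0.045 (Cspg4) to 0.39 (Gpr17). The precursor mean minus the mean of the others ran from -0.68 to 0.0086 over the libraries labelled WT and from -0.43 to 0.33 over those labelled cKO, so the groups overlapped. Within each group it was lowest in the 2 libraries with little Oxt. These means are descriptions and carry no test.

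With the mean of the 35 mature genes in the fit, 10 members passed the threshold, 8 with a higher and 2 with a lower level under the cKO label, where 22.5% of all tested genes passed (11.1% higher and 11.4% lower). Gpr17 (0.39), Olig2 (0.28) and Pdgfra (0.14) were again among the higher ones, joined by Mobp (0.26, SE 0.051, limma adjusted p = 0.00437), Bcas1 (0.24), Olig1 (0.20), Cryab (0.19), a small heat shock protein, and Ugt8a (0.18). Lower for their level of the mature genes were Nkx6-2 (-0.39) and Hapln2 (-0.31, SE 0.053, limma adjusted p = 0.002). Mbp had 0.048 (SE 0.046, limma adjusted p = 0.477), where its SE without this term was 0.25. These differences are relative to the mature genes taken as reference. With Mbp as the reference instead, 8 of the 30 other members passed (21.7% of all tested genes), the same genes without Cryab and Ugt8a. Of the 27 genes, 12 had a difference below 0 in the fit with the 35 genes, with a median of 0.022.

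**Figure D5:**
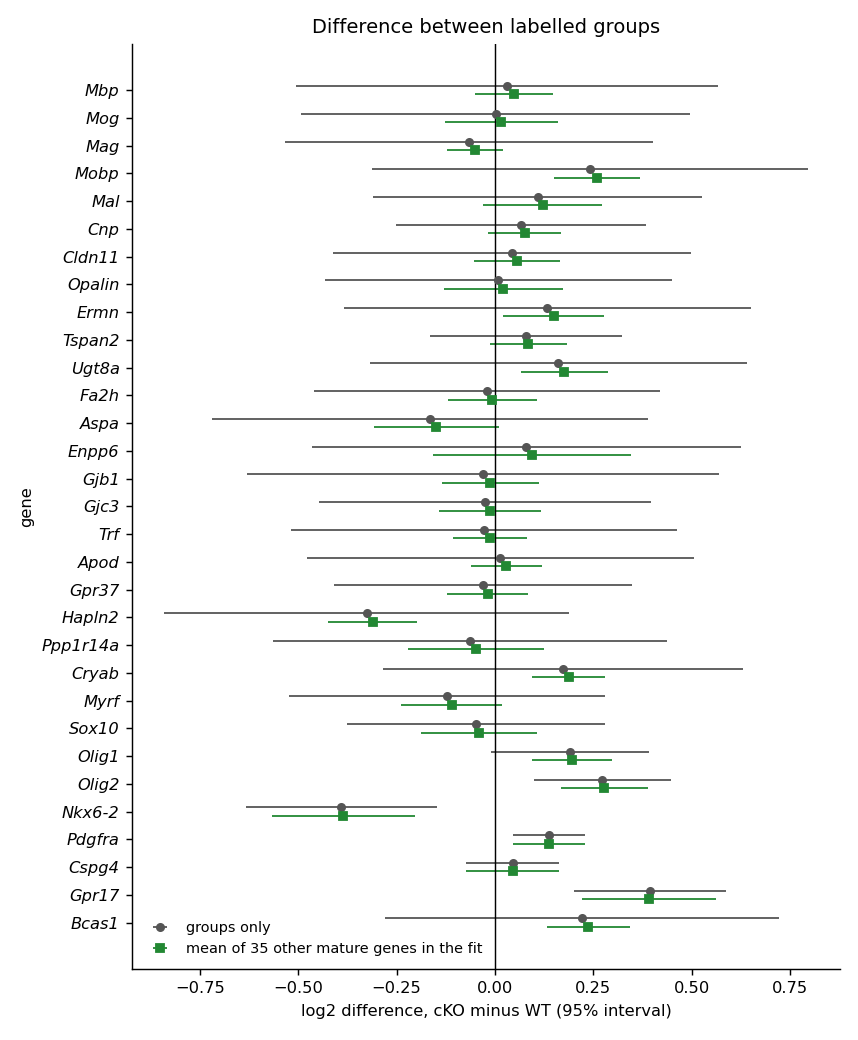
Difference between libraries labelled cKO and WT in log2(CPM + 1) for each gene, with 95% intervals, from the fit with groups only (grey circles) and with the mean of 35 other genes of mature oligodendrocytes added (green squares). Intervals of the myelin genes are wide without this term and narrow with it, and those of Pdgfra, Cspg4 and Gpr17 hardly change.

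Of 8 markers of thalamic neurons, 4 passed the threshold between the labelled groups (Prkcd, Ntng1, Rora and Plekhg1), all lower under the cKO label. Over all tested genes 14.1% passed and 7.6% were lower. The median difference of the 8 thalamic markers was -0.57. Their summed level was 661 to 1282 CPM in the libraries labelled WT and 419 to 731 CPM in those labelled cKO. With the mean level of these markers as a covariate, Nkx6-2 was the one member past the threshold (-0.65, limma adjusted p = 0.018; 3.88% of all tested genes passed). Of 12 hypothalamic markers 1 passed between the labelled groups, higher under the cKO label, where 6.54% of all tested genes were higher. Their median difference was 0.49. With the mean level of these hypothalamic markers as the covariate instead, 9 members passed, 8 of them higher, where 19.2% of all tested genes passed. Mobp and Bcas1 were among the higher ones (0.41 and 0.38). With both scores, Nkx6-2 was again the one member past the threshold (-0.60; 8.5% of all tested genes passed). With limma's arrayWeights, which give less weight to libraries that lie far from their group, Gpr17, Pdgfra, Nkx6-2 and Hapln2 passed (33.4% of all tested genes passed).

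Other genes of the lineage were read from 2 wider lists. In the list of 35 genes of mature oligodendrocytes, 0 passed between the labelled groups by limma and 1 had an unadjusted p under 0.05. Of the same list, edgeR called 0 and DESeq2 called 1 (Carns1, the carnosine synthase). Over all tested genes the shares, in the same order, were 14.1%, 31.1%, 13.7% and 17.9%. In the list of 20 further genes of precursors and newly formed oligodendrocytes, 3 rose and 1 fell under the cKO label (20% called, against 14.1% of all tested genes), and 4 had a slope on the mature genes past the threshold (20%, against 16.3% of all tested genes), upward for C1ql1 and Itpr2 and downward for Mycl and Cacng4, with a median slope of 0.046. Neu4, a sialidase of precursors, was at 12.6, 13.8 and 14.9 CPM (lowest, median, highest) and 17.2, 18.1, 15.9, 18.9 and 16.7 CPM, with groups apart and a rise of 0.31 (SE 0.056, limma adjusted p = 0.00537). Rlbp1, a retinaldehyde binding protein, rose by 0.35 and Susd5 by 0.20 (limma adjusted p = 0.034 and 0.0353). Pcdh15, a protocadherin of precursors, fell from 44.9, 48.1 and 53.9 CPM to 40.1, 41.1, 44.9, 41.4 and 41.4 CPM, with groups apart by less than 0.1 CPM at WT 11 and cKO 12 (-0.21, limma adjusted p = 0.0132). With thalamic markers as a covariate, Neu4 and Pcdh15 were past the threshold (limma adjusted p = 0.0202 and 0.018) and Rlbp1 and Susd5 were not (0.115 and 0.0664).

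Markers of other cell types had slopes on the mature genes in both directions, where 9.06% of all tested genes had an upward and 7.28% a downward slope past the threshold. All 5 ependymal markers fell as the mature genes rose, with a median slope of -1.08, and so did 7 of 12 markers of hypothalamic neurons (Oxt, Avp, Otp, Fezf1, Sim1, Trh and Gal), with a median of -2.21. Upward slopes passed for 5 of 5 endothelial markers (median 0.43), 5 of 8 astrocyte markers (Gfap, Aqp4, Aldh1l1, S100b and Aldoc), 3 of 5 mural markers (Pdgfrb, Rgs5 and Acta2), 3 of 5 fibroblast markers (Dcn, Col1a1 and Lum), 3 of 8 general neuron markers (Snap25, Nefl and Nefm) and 1 of 8 microglial markers (C1qb), the last near the share of all tested genes. Downward slopes also passed for Slc1a3 among astrocyte markers and for 1 of 8 thalamic markers (Tnnt1). Of 3 cortical markers tested, Neurod6 had an upward and Tbr1 a downward slope past the threshold. By limma 0 of 3 choroid plexus markers and 0 of 1 Schwann cell marker passed, with 0 at an unadjusted p under 0.05 and 0 by edgeR. Among astrocyte genes the water channel Aqp4 had 1.01 and the glutamate transporter Slc1a3 -0.82. Among neuronal genes the neurofilament Nefm, a protein of large axons, had 1.19 (SE 0.14, limma adjusted p = 6.85e-05). Its level was 240.0 and 237 CPM in WT 4 and WT 5 and at most 161 CPM in the other libraries labelled WT. Genes of these lists, and C1ql1, Itpr2, Mycl, Cacng4 and Carns1, were named after their values were seen.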

How the data were processed

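Poly(A) RNA of 12 hypothalami (7 labelled WT, 5 labelled cKO) was sequenced from NEBNext Ultra II libraries, per the labels' protocols. The submitters' processing notes name bcl2fastq, FastQC 0.11.9, STAR 2.7.9a, SAMtools and Subread featureCounts; genome build, annotation and strand setting are not given in the sources used here. The authors deposited normalized CPM values for 32494 genes, and 100% of these were whole multiples of 1 step per library (within 0.1 read), from which whole reads were recovered. The authors also deposited their own log2 fold changes with a p-value and FDR per gene. All 12 value columns were matched to a sample by name (0 left unused), 0 rows named no gene, and 692 genes were at 0 throughout. A level of 3 reads corresponds to 0.0436 to 0.178 CPM; this covers counting error only.

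The main test was limma 3.58.1 (R 4.3.3; lmFit, eBayes with trend) on log2(CPM + 1) over the 15359 genes whose mean reached 1 CPM, with Benjamini-Hochberg adjustment over all of them and a threshold of 0.05. Adding 1 CPM understates changes of genes with low values. Slopes came from the same model with group and the mean log2(CPM + 1) of 35 genes of mature oligodendrocytes as terms, over the 15324 other genes. Exact two-sided permutation tests ran over 792 splits. Alternatives were other pseudocounts, filters, scalings and limma options, edgeR 4.0.16 (quasi-likelihood) and DESeq2 1.42.0 on recovered reads, marker scores (a list's mean log2(CPM + 1)) as covariates, and each mouse left out. Chosen after seeing the data were the fits with that mean or with Mbp as a term, both marker scores together, a GC content and length correction (GENCODE M21, 14515 genes matched, also fitted uncorrected) and the split of libraries at 10 CPM of Oxt. On simulated counts limma recovered 199 of 200 genes changed by 1 log2 unit and 111 of 198 (56.1%) changed by 0.4 among 15346 genes, and 167 of 199 slopes of 1. Every simulated gene had the same dispersion. The 27 members other than the precursor genes spread more (median SD within groups 0.42, against 0.12 over all tested genes). These recovery rates therefore do not apply to those members. The named genes are the 31 members, the genes of each wider list past the threshold (up to 3 in each direction), Smc3, and genes a result turns on. The members and lists were chosen with earlier results of these data known. Some genes of the marker lists are not reported here.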

Additional observations from a re-analysis of the deposited data

Results flagged for a closer look

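In 2 of 62 groups examined (the 31 members in each labelled group), 1 library stood apart from the rest by Dixon's 95% limit; chance gives about 1 in 20, or 3.1 of 62. Gpr17 in WT 4 was at 42.3 CPM, and the nearest other library labelled WT was at 52.0 CPM, a gap of 0.646 of the group's range. Gpr17 in cKO 8 was at 88.7 CPM, and the nearest other library labelled cKO was at 69.9 CPM, a gap of 0.716 of the range. Without WT 4 the difference of Gpr17 between the labelled groups was 0.34 (limma adjusted p = 0.0191), and without cKO 8 it was 0.31 (limma adjusted p = 0.0247).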

How the results depend on the processing

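No paired analysis was possible because the groups share no mouse number. Of the 4 members called between the labelled groups, none changed direction under any alternative run. The count of called members (4) was 1 when all genes above 0 were tested, 2 without the trend, 1 with the thalamic score as covariate, 9 with the hypothalamic score, 1 with both, 0 in the 4 libraries with little Oxt, 10 with the mean of the 35 mature genes in the fit and 8 with Mbp in it, and 1 to 3 with 1 library left out (1 without WT 1, WT 6, cKO 9 or cKO 14). The count over all tested genes (2172) was 5126 with arrayWeights, 596 with the thalamic score, 1304 with both scores, 117 in the 4 libraries, 3445 with the mean of the 35 genes, 3334 with Mbp and 1161 (without WT 1) to 2309 (without WT 5) with 1 library left out. Its split of 1004 higher and 1168 lower became 1377 and 1054 after median centring and 1311 and 897 after the GC correction, which 14515 genes entered; these genes without the correction gave 951 and 1007. A pseudocount of 0.1, a minimum mean of 5 CPM, median centring, quantile normalization and DESeq2 each called 4 members, 3 higher and 1 lower, as did the matched genes without the GC correction. ArrayWeights called 4 with Hapln2 (-0.54) past the threshold and Olig2 not, the GC correction called 4, all higher, with Cspg4 (0.18) past it and Nkx6-2 (-0.33) not, and the robust option, edgeR and the 8 libraries 3. Slopes on the 35 mature genes were past the threshold for 28 members, for 2 in the 8 libraries with Oxt and for 27 or 28 with 1 library left out; median centring, quantile normalization and edgeR gave 27, and a pseudocount of 0.1 and the GC correction 28. The causes of these changes were not tested, except that the subsets hold fewer libraries.

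Members not called between the groups crossed 0 under some alternatives, with the log2 differences given here. With arrayWeights these were Mbp -0.17, Mog -0.17, Mal -0.015, Cnp -0.044, Cldn11 -0.079, Opalin -0.15, Ermn -0.018, Tspan2 -0.012, Enpp6 -0.16 and Apod -0.20. With edgeR these were Mog -0.033, Opalin -0.0019 and Apod -0.0025. With DESeq2 these were Mog -0.037, Opalin -0.0071 and Apod -0.0054. With the thalamic score these were Mbp -0.076, Mog -0.027, Cldn11 -0.00094, Opalin -0.044, Enpp6 -0.034 and Apod -0.12. With the hypothalamic score these were Mag 0.076, Fa2h 0.11, Gjb1 0.15, Gjc3 0.10, Sox10 0.049, Trf 0.12, Gpr37 0.081 and Ppp1r14a 0.078. With both scores these were Mag 0.0023, Fa2h 0.080, Gjb1 0.0034, Trf 0.065, Gpr37 0.013 and Ppp1r14a 0.014. With the GC content and length correction these were Mog -0.021, Fa2h 0.021, Gjb1 0.013, Sox10 0.024, Apod -0.027 and Gpr37 0.020. In the 8 libraries with Oxt these were Mbp -0.067, Mog -0.025, Opalin -0.047 and Apod -0.063. In the 4 libraries with little Oxt these were Mbp -0.070, Mog -0.20, Mal -0.14, Cnp -0.094, Cldn11 -0.16, Opalin -0.13, Ermn -0.035, Ugt8a -0.035, Enpp6 -0.18, Apod -0.10, Ppp1r14a 0.028, Cryab -0.0063 and Cspg4 -0.041. With Mbp in the fit these were Mog -0.027, Opalin -0.017 and Apod -0.015. With 1 library left out, the range crossed 0 for Mbp -0.12 to 0.16, Mog -0.11 to 0.13, Mag -0.20 to 0.052, Cnp -0.0069 to 0.14, Cldn11 -0.071 to 0.16, Opalin -0.14 to 0.11, Tspan2 -0.0052 to 0.14, Fa2h -0.13 to 0.10, Aspa -0.34 to 0.010, Enpp6 -0.060 to 0.22, Gjb1 -0.19 to 0.15, Gjc3 -0.12 to 0.079, Sox10 -0.14 to 0.027, Trf -0.15 to 0.093, Apod -0.12 to 0.12, Gpr37 -0.12 to 0.078 and Ppp1r14a -0.20 to 0.11. With 1 library left out, slopes on the mature genes crossed 0 for Pdgfra -0.039 to 0.079 and Cspg4 -0.0028 to 0.13.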
